A study of Mus musculus with 29 samples.

Results

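The genes described are 33 transcripts that mark neurons, astrocytes or oligodendrocytes, read in microglia sorted from mouse brain. They were chosen by name: 16 are known from neurons, 10 from astrocytes and 7 from oligodendrocytes. All 33 were found by symbol among the 36982 genes of the count table, and 32 passed the low-count filter; Nrgn, a neuronal calmodulin-binding protein, did not. The labels call the sorted cells microglia, and the members serve here to measure transcripts of other brain cells in those libraries.

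Neurons release transmitter from vesicles that Snap25 and Syt1 help to fuse, and they move cargo along axons with kinesins such as Kif1a. Astrocytes clear glutamate through the transporters encoded by Slc1a2 and Slc1a3 and support metabolism with enzymes such as Aldoc. Oligodendrocytes wrap axons in myelin, whose proteins include those encoded by Mbp, Mobp, Mag and Cnp. Some mRNAs, Mbp and Camk2a among them, are carried far from the cell body into myelin or dendrites.

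All mice were male C57BL/6J, received a first intraperitoneal injection at 10 weeks and a second 5 weeks later, and were killed at 15 weeks, 3 h after the second. Injections were saline (DPBS, P) or 1 mg/kg lipopolysaccharide (L) from Escherichia coli O111:B4. From 1 week after the first injection, mice took either vehicle (HPβCD) or the CSF1R inhibitor BLZ945 at 169 mg/kg per day for 5 days by gavage (B), which depletes microglia that then repopulate the brain. The groups were PP (saline, vehicle, saline, n = 5), PBP (saline, BLZ945, saline, n = 5), PL (saline, vehicle, LPS, n = 4), PBL (saline, BLZ945, LPS, n = 5), LL (LPS, vehicle, LPS, n = 5) and LBL (LPS, BLZ945, LPS, n = 5). The perfused brains were homogenised cold, myelin was spun out on Percoll, and single DAPI-negative CD11b-high CD45-intermediate Ly6C-negative events were sorted. No label ties a library to an animal; the p-values below therefore speak only of the scatter among the libraries, which may be technical.

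Sorting ran on 2 instruments over 5 days, and these nearly coincide with the groups. A MoFlo Astrios sorted 13 libraries: PP, PL and PBP 1 to 4. A MoFlo XDP sorted the other 16: PBP 5 and all of PBL, LL and LBL. Days are numbered here in date order: day 1 held LBL 1 to 4 and LL 5, day 2 LBL 5 and LL 1 to 4, day 3 PBL and PBP 5, day 4 PBP 1 to 4 with PL 1 and 2, and day 5 PP with PL 3 and 4. LL and PL, and PBL and PL, share neither an instrument nor a day, so for these pairs treatment, sorter and day cannot be told apart. LBL and PBL share the XDP but no day, and PBP and PP share no day either.

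Library totals lay between 5670450 and 12671476 counts, with a median of 7597841. The 12 microglial genes checked, among them P2ry12, Tmem119 and Cx3cr1, summed to between 37310 CPM (counts scaled to a common library size with TMM factors) in PBL 4 and 72440 CPM in PP 4. PBP 5 held 50270 CPM of them, against 65340 to 68710 in PBP 1 to 4. The RNA quality number (RQN, on which higher is better) had a median of 8.9 on the Astrios and 7.9 on the XDP, with the lowest value, 6.5, in PL 3.

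Members of all 3 classes were detected in every group, and apart from Slc1a3, Cnp and Mag they had low levels that stood higher in the libraries from the XDP. Summed over the 16 neuron genes, PP held 14.1 to 40.8 CPM, PL 32.98 to 61.4 and PBP 1 to 4 31.7 to 57.9. PBP 5, the one PBP library from the XDP, held 215.6 CPM. PBL had sums of 159.7 to 295.5 CPM, LL of 72.6 to 291.7 and LBL of 126.1 to 274.3, so no XDP library overlapped an Astrios library in this sum. Leaving out Slc1a3, the astrocyte sum was 19.8 to 48.0 CPM over the 13 Astrios libraries and 66.3 to 265.6 over the 16 from the XDP. Leaving out Cnp and Mag, the oligodendrocyte sum was 13.8 to 41.3 CPM on the Astrios and 42.5 to 185.8 on the XDP. Those 3 genes were set aside after their levels were seen, because they did not follow the others. The remaining 30 members together made up 0.00574% to 0.0138% of all counts on the Astrios and 0.0175% to 0.0694% on the XDP. In bulk RNA, more cells of a type and more RNA per cell cannot be told apart.

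**Figure D1:**
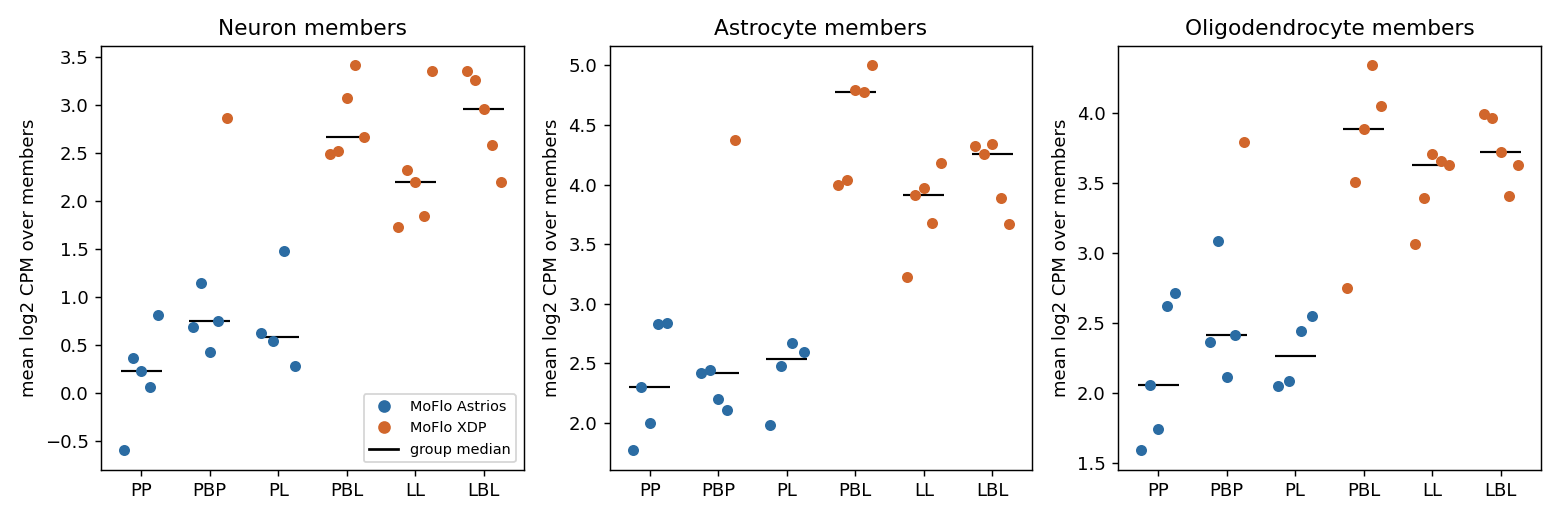
Mean log2 CPM over the members of each class (vertical axis) in each of the 29 libraries, by group; colour gives the sorter and the black line the group median. PBP 5, sorted on the XDP, lies with PBL, LL and LBL and away from PBP 1 to 4: its astrocyte mean was 4.37 against 2.11 to 2.44.

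Levels between genes were compared per kilobase of exon, with exon lengths from GENCODE M21 on GRCm38, a build other than that of the counts. In PP, Slc1a3 stood at 56.9 CPM per kb, Cnp at 24.5 and Mag at 6.83, and the next members were Aldoc at 3.37 and Mbp at 3.2 CPM per kb. The lowest members were Tubb3 at 0.0559 and Gad1 at 0.0582 CPM per kb. The microglial list itself ran in the same libraries from Ptprc at 26.8 through Itgam at 58.8 and Sall1 at 85.1 up to P2ry12 at 4490 CPM per kb and above. Slc1a3 thus lay above Ptprc and close to Itgam, and in PL, at 94.8 CPM per kb, above Itgam at 66.2 and Sall1 at 19.0.

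The sorter comparison used the only group sorted on both instruments, PBP, with group held in the fit. It rests on PBP 5 against PBP 1 to 4, which also differ in sorting day and in RQN (7.4 against 8.8 to 9.0), and these cannot be told apart. In edgeR's quasi-likelihood test with Benjamini-Hochberg adjustment over all 16632 genes tested, 17 of 32 members were higher and 0 lower in the XDP library. With 1 library in that arm, the SEs and p-values take their spread from the other libraries and assume that PBP 5 varies as they do; they compare that library with the rest of PBP and do not replicate a sorter difference. Of all genes 6.12% were called, 4.25% higher and 1.87% lower. The 17 comprised 9 neuron genes, 6 astrocyte genes and 2 oligodendrocyte genes, and the median log2 difference of the 32 was 2.07, against -0.04 over all genes. Rbfox3, a neuronal RNA-binding protein, differed by 3.49 ± 0.62 (log2, SE, adjusted p = 0.003201). Aldoc, an astrocyte gene, differed by 2.56 ± 0.49 (adjusted p = 0.005408), and Mobp, a myelin protein gene, by 2.85 ± 0.65 (adjusted p = 0.01336). Leaving out 1 of PBP 1 to 4 left 11 to 16 members called, and with the replicate number as a block 0 were called. Shares of all genes in these alternative fits are not given here, so their counts cannot be read as particular to the members.

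Over all 29 libraries, with no test because the groups differ too, 6 of the 33 members had every XDP library above every Astrios library: Kif1a, Myt1l, Stmn2, Slc17a7, Sparcl1 and Mobp. Of all genes tested, 0.295% were separated in this direction. Apart from Slc1a3, Cnp and Mag, the ratio of the XDP median to the Astrios median ran from 2.64 for Aqp4, the astrocyte water channel, to 17.2 for Gad1, which makes the transmitter GABA. The microglial list of 12 genes had 0 called members in the PBP sorter comparison in edgeR, with 5 at an unadjusted p under 0.05.

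**Figure D2:**
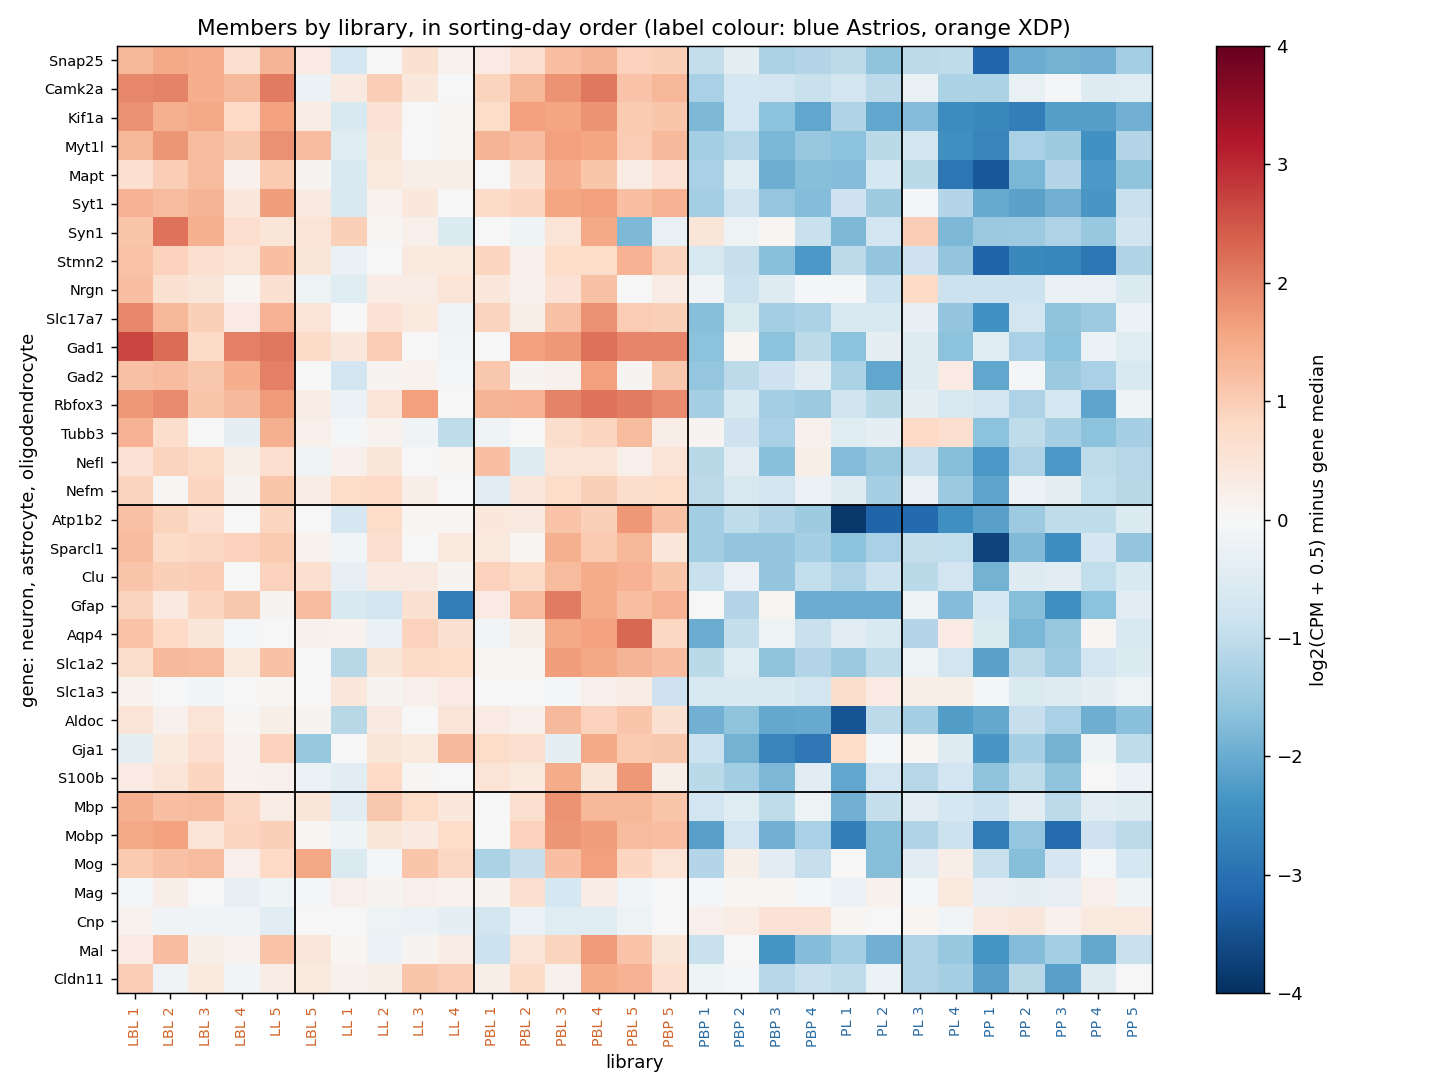
Each row is a member and each column a library, ordered by sorting day (vertical lines) with the sorter in the label colour; the colour is log2(CPM + 0.5) minus that gene's median over the 29 libraries. Columns from the XDP are mostly red and those from the Astrios mostly blue, while the rows of Slc1a3, Mag and Cnp do not follow that split.

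In the values by gene below, PBL against PBP with the sorter in the fit compares PBL with PBP 5 alone. A value near 0 there is no evidence that the groups were alike. Snap25 encodes a protein of the vesicle fusion machinery. Snap25 read 2.11, 5.39, 5.82, 5.64 and 8.70 CPM in PP 1 to 5 and 10.7, 7.13, 10.9 and 11.1 in PL 1 to 4. In PBP it read 11.5, 17.5, 9.14 and 9.92 CPM in replicates 1 to 4 and 44.9 in replicate 5. PBL held 29.03, 36.2, 53.6, 60.1 and 44.0 CPM, LL 13.9, 22.9, 35.2, 25.3 and 59.2, and LBL 58.4, 66.3, 63.5, 36.0 and 28.9. PP, PL and PBP 1 to 4 lay between 2.11 and 17.5 CPM, and only LL 1, at 13.9, fell inside that range among the XDP libraries. Snap25 was 1.28 ± 0.40 higher in PBL than in PBP (log2, SE, adjusted p = 0.0112) and -0.01 ± 0.52 once the sorter was a term (adjusted p = 0.994). Between LL and PL, Snap25 differed by 1.64 ± 0.45 (adjusted p = 0.04349). CPM of Syt1 were 4.46, 4.05, 4.81, 3.48 and 10.3 in PP, 10.8, 6.95, 18.5 and 8.47 in PL and 7.24, 10.9, 6.32, 5.54 and 51.7 in PBP. They were 33.9, 36.1, 58.8, 61.6 and 45.6 in PBL, 12.7, 21.8, 26.5, 19.5 and 63.8 in LL and 52.2, 47.9, 50.7, 26.7 and 25.02 in LBL. Syt1, the calcium sensor of vesicle release, was highest on the Astrios in PL 3, the library of lowest RQN. On the log2 scale the difference of PBL from PBP for Syt1 was 1.56 ± 0.52 (SE, adjusted p = 0.01732); with the sorter in the fit it was -0.13 ± 0.58 (adjusted p = 0.9336). Syt1 gave 1.36 ± 0.57 in LL against PL (adjusted p = 0.2315).

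Kif1a, a kinesin that carries vesicle precursors along axons, separated the instruments. The saline-only mice (PP) gave Kif1a levels of 1.74, 1.48, 2.40, 2.40 and 3.02 CPM, PL 5.35, 2.67, 3.55 and 1.85, and PBP 3.35, 7.72, 3.76, 2.68 and 28.1. PBL gave 21.7, 41.6, 39.6, 45.6 and 26.9 CPM, LL 8.32, 19.4, 12.9, 13.7 and 40.6, and LBL 46.9, 35.0, 37.9, 22.9 and 16.1 for the same gene. The highest Astrios value, 7.72 CPM in PBP 2, was below the lowest XDP value, 8.32 CPM in LL 1. On the log2 scale the difference of PBL from PBP for Kif1a was 1.99 ± 0.50 (SE, adjusted p = 0.002463); with the sorter in the fit it was 0.32 ± 0.58 (adjusted p = 0.8145). Kif1a gave 2.49 ± 0.59 in LL against PL (adjusted p = 0.01739). Myt1l, a transcription factor of neurons, was separated too. CPM of Myt1l were 0.867, 2.97, 2.66, 1.079 and 3.28 in PP, 2.24, 3.57, 4.62 and 1.06 in PL and 2.81, 3.34, 1.88, 2.50 and 20.4 in PBP. They were 21.3, 19.5, 26.2, 24.8 and 16.8 in PBL, 5.55, 11.4, 8.04, 8.30 and 29.7 in LL and 21.1, 28.6, 20.2, 17.5 and 19.4 in LBL. Within LL, replicate 5 held the highest value of both genes; it was sorted on day 1 and LL 1 to 4 on day 2. Myt1l was 1.86 ± 0.51 higher in PBL than in PBP (log2, SE, adjusted p = 0.004726) and 0.09 ± 0.57 once the sorter was a term (adjusted p = 0.9533). Between LL and PL, Myt1l differed by 2.14 ± 0.59 (adjusted p = 0.04597).

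Aldoc encodes a glycolytic enzyme that astrocytes express. Aldoc read 7.43, 16.9, 12.8, 8.04 and 9.83 CPM in PP 1 to 5 and 2.49, 15.5, 12.4 and 6.49 in PL 1 to 4. In PBP it read 8.11, 10.2, 7.52 and 7.60 CPM in replicates 1 to 4 and 49.1 in replicate 5. PBL held 40.5, 37.7, 80.4, 62.2 and 69.9 CPM, LL 14.6, 41.4, 32.3, 45.9 and 37.9, and LBL 46.5, 36.7, 47.6, 33.4 and 35.0. Only LL 1, at 14.6 CPM, fell inside the Astrios range. Aldoc was 1.85 ± 0.47 higher in PBL than in PBP (log2, SE, adjusted p = 0.00244) and 0.25 ± 0.52 once the sorter was a term (adjusted p = 0.8488). Between LL and PL, Aldoc differed by 1.92 ± 0.52 (adjusted p = 0.04491). The saline-only mice (PP) gave Sparcl1 levels of 1.12, 5.66, 3.29, 12.7 and 6.55 CPM, PL 6.22, 8.02, 10.4 and 10.1, and PBP 7.57, 6.56, 6.58, 7.87 and 28.3. PBL gave 27.2, 21.9, 55.9, 43.5 and 52.5 CPM, LL 19.3, 32.7, 20.6, 27.0 and 42.7, and LBL 50.2, 35.8, 36.8, 39.2 and 22.6 for the same gene. Sparcl1, a secreted matrix protein, had no overlap between the instruments. On the log2 scale the difference of PBL from PBP for Sparcl1 was 1.85 ± 0.43 (SE, adjusted p = 0.001017); with the sorter in the fit it was 0.51 ± 0.58 (adjusted p = 0.6721). Sparcl1 gave 1.71 ± 0.47 in LL against PL (adjusted p = 0.04337). CPM of Slc1a2 were 1.86, 4.59, 3.29, 5.64 and 6.68 in PP, 3.24, 4.63, 8.52 and 5.82 in PL and 4.43, 6.94, 2.96, 4.11 and 24.1 in PBP. They were 10.6, 10.5, 32.6, 30.4 and 26.2 in PBL, 4.38, 14.0, 17.3, 16.9 and 23.1 in LL and 16.7, 25.5, 24.7, 13.2 and 9.98 in LBL. Slc1a2, the main astrocyte glutamate transporter, overlapped through LL 1 at 4.38 CPM, the lowest XDP value. Slc1a2 was 1.41 ± 0.49 higher in PBL than in PBP (log2, SE, adjusted p = 0.02065) and -0.12 ± 0.61 once the sorter was a term (adjusted p = 0.9428). Between LL and PL, Slc1a2 differed by 1.44 ± 0.54 (adjusted p = 0.1626).

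Atp1b2, a subunit of the sodium pump, was the one astrocyte gene called lower after a first LPS injection in undepleted mice. Atp1b2 read 2.73, 4.72, 6.58, 6.60 and 9.20 CPM in PP 1 to 5 and 0.498, 1.07, 1.18 and 2.12 in PL 1 to 4. In PBP it read 4.97, 6.56, 5.78 and 4.83 CPM in replicates 1 to 4 and 31.8 in replicate 5. PBL held 18.6, 18.1, 31.5, 27.6 and 47.5 CPM, LL 8.61, 23.3, 14.6, 14.8 and 25.9, and LBL 31.9, 26.3, 21.7, 13.9 and 14.2. All 4 PL libraries were below all 5 PP libraries, at most 2.12 against at least 2.73 CPM. The difference was -2.28 ± 0.62 on the log2 scale (adjusted p = 0.00642), and with limma voom in place of edgeR its adjusted p was 0.0619. In LL the gene was 3.83 ± 0.61 higher than in PL (adjusted p = 0.0001778), across different instruments.

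Mbp encodes the main cytoplasmic protein of myelin. CPM of Mbp were 23.2, 31.2, 20.1, 31.7 and 29.2 in PP, 10.8, 21.4, 30.5 and 25.7 in PL and 24.9, 30.2, 20.8, 37.0 and 91.0 in PBP. They were 42.3, 65.5, 147, 107 and 108 in PBL, 30.5, 89.1, 70.8, 57.1 and 52.1 in LL and 115, 97.8, 103, 76.1 and 59.2 in LBL. Only LL 1, at 30.5 CPM, fell inside the Astrios range of 10.8 to 37.01. On the log2 scale the difference of PBL from PBP for Mbp was 1.22 ± 0.37 (SE, adjusted p = 0.009518); with the sorter in the fit it was 0.05 ± 0.51 (adjusted p = 0.9736). Mbp gave 1.44 ± 0.41 in LL against PL (adjusted p = 0.05415). The saline-only mice (PP) gave Mobp levels of 0.743, 2.43, 0.506, 4.32 and 3.65 CPM, PL 0.747, 2.14, 3.20 and 4.24, and PBP 1.41, 4.50, 1.75, 2.95 and 19.1. PBL gave 8.06, 15.8, 28.9, 26.9 and 20.2 CPM, LL 7.15, 11.5, 10.5, 13.7 and 16.2, and LBL 23.8, 25.5, 11.6, 14.9 and 8.39 for the same gene. For Mobp, another myelin protein gene, the highest Astrios value was 4.50 CPM and the lowest XDP value 7.15 CPM. Mobp was 1.79 ± 0.56 higher in PBL than in PBP (log2, SE, adjusted p = 0.01206) and 0.07 ± 0.68 once the sorter was a term (adjusted p = 0.9735). Between LL and PL, Mobp differed by 2.19 ± 0.65 (adjusted p = 0.071).

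**Figure D3:**
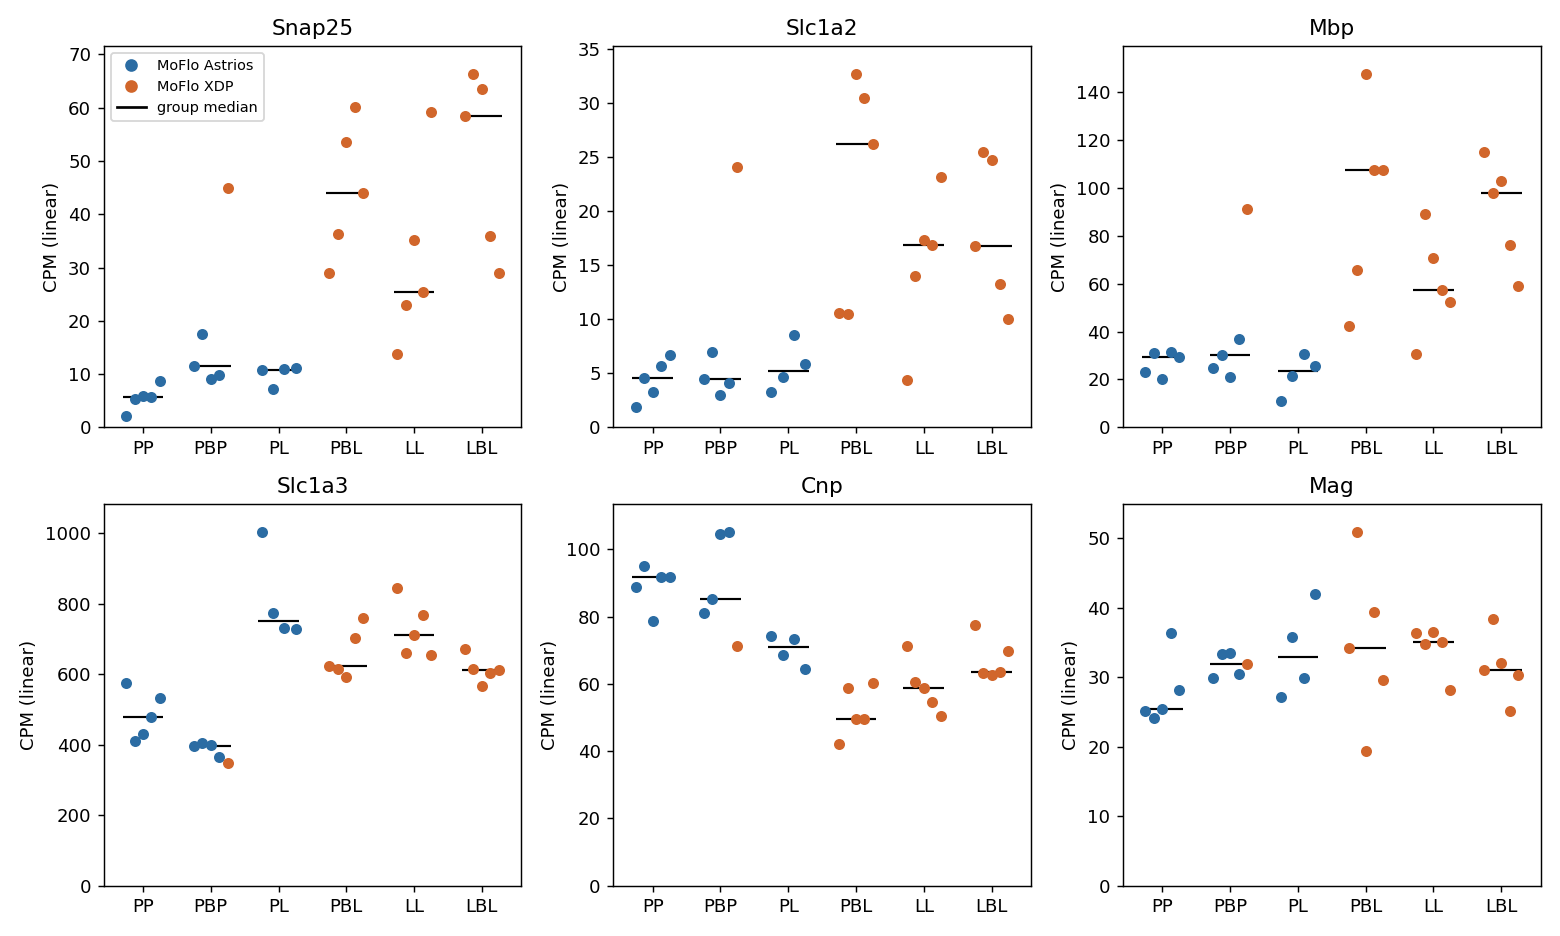
CPM (linear axis from 0) of 6 members in each library by group, coloured by sorter, with group medians as black lines. Snap25, Slc1a2 and Mbp follow the sorter, with PBP 5 high; Slc1a3, Cnp and Mag do not, and in PBP 5 they read 349, 71.3 and 31.8 CPM.

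Slc1a3, Cnp and Mag stood apart from the other 30 members. Slc1a3 read 576, 411, 430.1, 479.5 and 533 CPM in PP 1 to 5 and 1003, 773, 732 and 728 in PL 1 to 4. In PBP it read 397, 404, 398 and 366 CPM in replicates 1 to 4 and 349 in replicate 5. PBL held 623, 614, 592, 704 and 759 CPM, LL 846, 660.0, 713, 769 and 655, and LBL 671, 616, 567, 604 and 613. Slc1a3, the second astrocyte glutamate transporter, was lower in PP and PBP, at 349 to 576 CPM, than in every group given LPS, at 567 to 1003, with LBL 3 the only overlapping library. It rose after a first LPS injection by 0.74 ± 0.11 in undepleted mice (log2, adjusted p = 1.228e-06) and by 0.78 ± 0.10 in repopulated mice (adjusted p = 1.037e-07). With the sorter in the fit the rise in repopulated mice was 0.92 (adjusted p = 0.0004067), resting on PBP 5; PL and PP share the Astrios, so that term cannot move the other value. The PBP sorter coefficient was -0.16 ± 0.18 (adjusted p = 0.607).

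Cnp encodes a phosphodiesterase of myelin. The saline-only mice (PP) gave Cnp levels of 88.8, 94.9, 78.7, 91.9 and 91.7 CPM, PL 74.2, 68.6, 73.4 and 64.5, and PBP 81.0, 85.3, 105, 105 and 71.3. PBL gave 42.1, 58.8, 49.7, 49.7 and 60.4 CPM, LL 71.2, 60.6, 58.7, 54.5 and 50.5, and LBL 77.6, 63.2, 62.7, 63.7 and 69.9 for the same gene. It fell after a first LPS injection by 0.35 in undepleted mice (log2, SE 0.12, adjusted p = 0.03359), a call that held in 3 of 9 fits with 1 PP or PL library left out. In repopulated mice it fell by 0.78 (log2, SE 0.12, adjusted p = 1.615e-06), and PBL, at 42.1 to 60.4 CPM, lay wholly below PBP, at 71.3 to 105. Once sorter was a term that difference was -0.45 (adjusted p = 0.11). Mag, an adhesion protein of the inner myelin layer, had no called difference. CPM of Mag were 25.2, 24.1, 25.4, 36.3 and 28.1 in PP, 27.1, 35.8, 29.8 and 42.0 in PL and 29.8, 33.3, 33.5, 30.5 and 31.8 in PBP. They were 34.2, 50.8, 19.4, 39.4 and 29.6 in PBL, 36.4, 34.8, 36.5, 35.0 and 28.15 in LL and 31.1, 38.4, 32.0, 25.2 and 30.2 in LBL. Its log2 differences in the 7 group comparisons lay between -0.14 and 0.27 and none was called.

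After a first LPS injection in undepleted mice, PL against PP, all libraries came from the Astrios. Called higher were 2 members, Tubb3 and Slc1a3, and called lower 2, Atp1b2 and Cnp. Of all genes 26.2% were called, 14.2% higher and 11.9% lower, so the members' shares were below the background. Tubb3, a neuronal tubulin, read 0.10 ± 0.11 CPM in PP (SD, n = 5) and 1.39 ± 0.84 in PL (SD, n = 4), a log2 difference of 3.59 ± 0.85 (SE, adjusted p = 0.001457). Its counts were 0, 2, 1, 0 and 1 in PP 1 to 5 and 5, 4, 19 and 15 in PL 1 to 4. The PP level was thus near 0.0752 CPM, which 3 counts over that group would give, and the size of the difference rests on few reads. The median difference was 0.31 over the 32 members and 0.00 over all genes.

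The same injection in repopulated mice, PBL against PBP, gave 21 members called higher and 1, Cnp, lower. Of all genes 43.1% were called, 21.5% higher and 21.5% lower, so the members' share of higher calls was above and that of lower calls below the background. By class the higher calls were 9 of 15 neuron genes tested, 9 of 10 astrocyte genes and 3 of 7 oligodendrocyte genes, with median log2 differences of 1.56, 1.55 and 1.29. Without PBP 5, leaving PBP on the Astrios and PBL on the XDP, 26 members were higher and 1 lower, against 26.5% and 23.6% of all genes. With the sorter in the fit only Slc1a3 was called, the median over the 32 members was 0.08, and 7.4% of all genes were higher and 5.98% lower. Among XDP libraries alone, PBP 5 against the 5 PBL libraries, the PBP arm is 1 library, assumed to vary like the others. A count of called members from those libraries is therefore no evidence that the groups were alike or differed. The difference between this response and that of undepleted mice had 0 called members in edgeR, with 8 at an unadjusted p under 0.05, and 0% of all genes called. DESeq2 called 1. Without PBP 5 edgeR called 11, but PBP then came from the Astrios alone and PBL from the XDP, so response and sorter cannot be told apart. The shares of all genes called in these fits are not given here.

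An earlier LPS injection in undepleted mice, LL against PL, was accompanied by 10 members called higher and 0 lower, where 2.78% of all genes were called, 0.752% higher and 2.03% lower. The 10 were the neuron genes Snap25, Camk2a, Kif1a, Myt1l, Mapt and Nefl and the astrocyte genes Atp1b2, Sparcl1, Clu and Aldoc. Kif1a differed by 2.49 ± 0.59 (log2, SE, adjusted p = 0.01739). LL was sorted on the XDP and PL on the Astrios, and the sorter term rests on PBP 5 against PBP 1 to 4. With the sorter in the fit 0 members were called, 2 had an unadjusted p under 0.05, and the median over members was -0.44 in place of 1.68; of all genes 0.0661% were called, 0.00601% higher and 0.0601% lower. The count was 1 without LL 5, 3 without LL 3, 4 without LL 2, LL 4 or PL 2, 2 without PL 1 or PL 3, 1 without PL 4, and 11 without LL 1. Shares of all genes are not given for the fits with 1 library left out, so these changes cannot be read as particular to the members.

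In repopulated mice, LBL against PBL, both groups came from the XDP and 1 member was called, Cnp, higher by 0.37 ± 0.12 (log2, SE, adjusted p = 0.04974). Of all genes 6.74% were called, 2.74% higher and 4% lower. PBL was sorted on day 3 and LBL on days 1 and 2, so treatment and day cannot be told apart, and a sorter term cannot move this contrast. With that term in the fit 1 member was called, where 3.39% of all genes were higher. The adjusted p ran from 0.0109 to 0.12 over the other settings tried, and the call held in 2 of 10 fits with 1 library left out. The median over the 32 members was -0.14. The difference between LBL against PBL and LL against PL called 1 member, Atp1b2, at -4.25 ± 0.74 (adjusted p = 0.04947), where 0.0241% of all genes were called, 0.012% lower. Its value with sorter as a term was -1.72 (adjusted p = 0.954).

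Depletion and repopulation were compared at each history of injection. Without LPS, PBP against PP, 1 member was called, Stmn2, a regulator of microtubules in growing axons, higher by 2.60 ± 0.63 (log2, SE, adjusted p = 0.04681), where 0.529% of all genes were called, 0.289% higher and 0.241% lower. It read 0 to 1.51 CPM in PP and 0.45 to 8.08 in PBP, with PBP 5 highest. Without PBP 5, edgeR called 0 members, where 0.399% of all genes were called, and 7 members had an unadjusted p under 0.05. The call for Stmn2 held in 3 of 10 fits with 1 library left out. PBP and PP share no sorting day. After a first LPS injection, PBL against PL, 24 members were higher and 2, Slc1a3 and Cnp, lower, where 22.1% of all genes were called, 11% higher and 11.1% lower. The call for Slc1a3 held in 2 of 9 fits with 1 library left out. With the sorter in the fit 0 were called and 2 had an unadjusted p under 0.05, where 0.018% of all genes were called. The 0 is thus near the share of all genes. After repeated LPS, LBL against LL, both from the XDP, 0 members were called in edgeR and 2 had an unadjusted p under 0.05. Of all genes 1.21% were called, 0.487% higher and 0.722% lower. The median log2 difference was 0.36 over the 32 members, 27 of them positive, and 0.02 over all genes. LBL 1 to 4 were sorted on day 1 and LL 1 to 4 on day 2, so depletion and day largely coincide here.

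**Figure D4:**
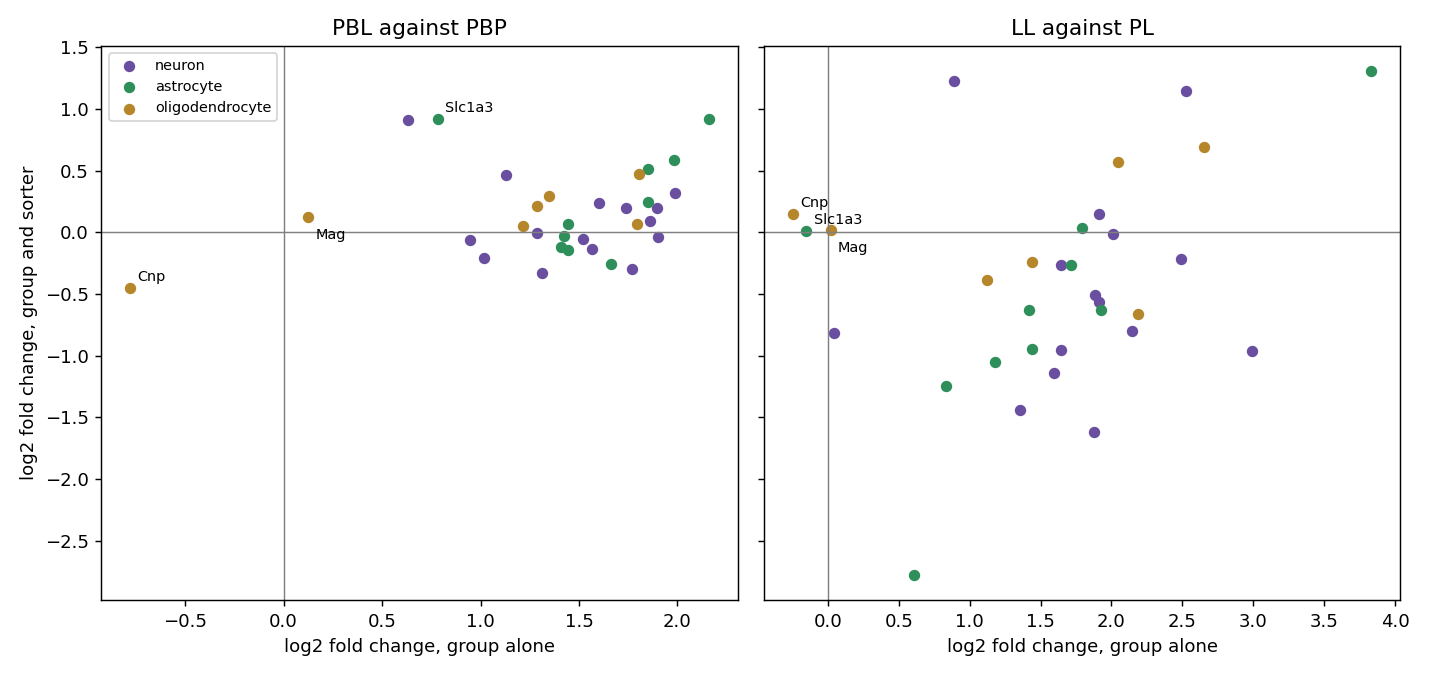
Each point is 1 of the 32 members tested, by class; the horizontal axis is its log2 fold change from the fit of groups alone and the vertical axis that from the fit of groups and sorter. Right of 0 lie 31 members for PBL against PBP and 30 for LL against PL, while their vertical values spread around 0, with medians of 0.08 (PBL against PBP) and -0.44 (LL against PL).

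Within the XDP libraries of LL and LBL, neuron genes were also read by sorting day; this contrast was added after the values by day were seen. The neuron sum was 291.7 CPM in LL 5 and 162.7 to 274.3 in LBL 1 to 4, all sorted on day 1. On day 2 it was 126.1 CPM in LBL 5 and 72.6 to 128.3 in LL 1 to 4. In a fit of group and day over all 29 libraries, day 2 against day 1 called 1 member lower, Camk2a, a kinase whose mRNA enters dendrites, at -1.81 ± 0.32 (log2, SE, adjusted p = 0.01062), where 0.108% of all genes were called, 0.0782% higher and 0.0301% lower. From the 10 LL and LBL libraries alone, the fit tried first, 6 members were lower: Snap25, Camk2a, Kif1a, Syt1, Gad2 and Sparcl1. The share of all genes called in that smaller fit is not given here, so its count cannot be read as particular to the members. In the fit over all 29 libraries, leaving out LL 5 gave 0 called. The day contrast then rested on LBL 5 against LBL 1 to 4. Median differences were -1.12 for the 15 neuron genes, -0.45 for astrocyte genes and 0.14 for oligodendrocyte genes, and 0.01 over all genes. RQN was 8.0 to 8.9 on day 1 and 7.6 to 8.4 on day 2, and its part in the difference was not tested.

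**Figure D5:**
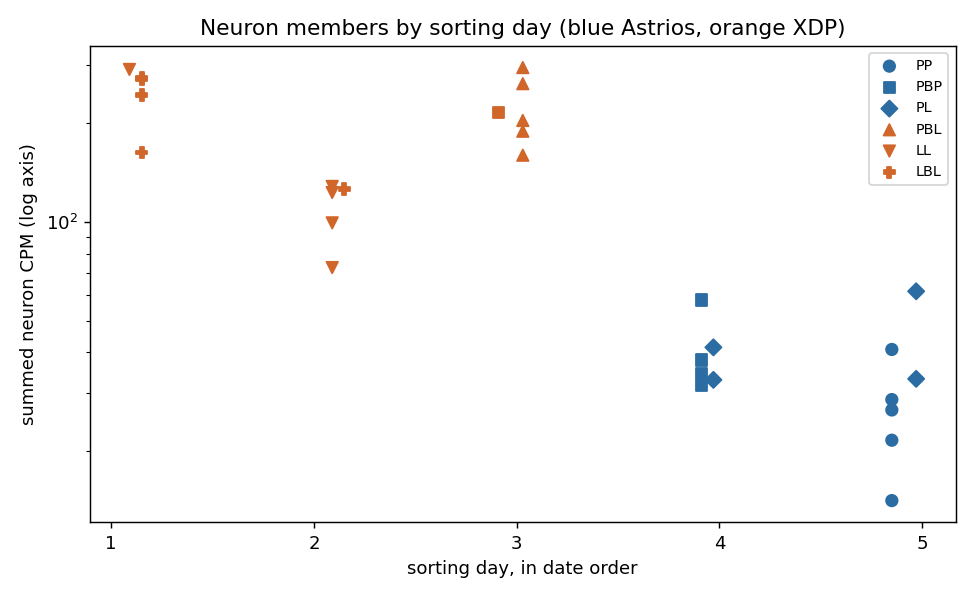
Summed CPM of the 16 neuron genes (log axis) against sorting day in date order; each marker is a library, its shape the group and its colour the sorter. Days 1 and 3 lie highest, day 2 lower at 72.6 to 128.3 CPM, and days 4 and 5, on the Astrios, lowest at 14.1 to 61.4 CPM.

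RNA quality within groups gave no called member. Per unit of RQN with group held, edgeR called 0 of 32 members, 4 had an unadjusted p under 0.05, and 29 of the 32 slopes were negative with a median of -0.31 (log2); 4.82% of all genes were called, 2.07% with a positive slope and 2.75% with a negative one. Leaving out 1 library gave 0 to 2 called. The RQN fit had no sorter term, so its slopes include PBP 5 (XDP, RQN 7.4) against PBP 1 to 4 (Astrios, 8.8 to 9.0). Within PBP, RQN and sorter cannot be told apart. The correlations that follow leave PBP 5 out, so their signs and those of the slopes are not from the same libraries. PL 3 lies far from its group in RQN, and without it and PL 1 the sign turned for 2 of 3 markers: as correlations of deviations within group and sorter, RQN and Slc1a2 gave r = -0.063, and 0.238 without PL 3 and PL 1. RQN and Mbp gave -0.204, and 0.139 without those 2, while RQN and Snap25 gave 0.166 and 0.293; the lowest adjusted permutation p of these was 0.406 for r and 0.392 for rho. For RNA concentration, a fit added after the data were seen, 0 members were called, 2 had an unadjusted p under 0.05, and 0% of all genes were called. PL 3, with the lowest RQN and a concentration of 0.59 ng per µl, held the highest neuron sum of the Astrios libraries, 61.4 CPM.

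Markers of the 3 classes were then related across libraries as deviations from the mean of their group on its sorter, over 28 libraries with PBP 5 left out as the only one of its kind. In 9 relations with two-sided permutation tests of 100000 resamples, Snap25 and Slc1a2 gave r = 0.844 (adjusted p = 9e-05) and rho = 0.839 (adjusted p = 9e-05); the raw p of 1e-05 is the smallest the resamples can give. Slc1a2 and Mbp gave r = 0.772 (permutation adjusted p = 0.000585) and rho = 0.649 (adjusted p = 0.00504). Without the 2 libraries farthest from the median, these r were 0.779 and 0.751. Snap25 and Mbp gave r = 0.462 (permutation adjusted p = 0.0487) and rho = 0.449 (adjusted p = 0.0836), and r = 0.372 (adjusted p = 0.184) without PP 1 and LL 1, where rho was 0.361; the estimates kept their sign and the call was lost. The 6 relations with RQN or RNA concentration had adjusted p of at least 0.74 for r and 0.613 for rho. Sorting days differ within LL, LBL and PL, and these deviations do not remove them.

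Other genes of the same cell types were counted in the same fits. In PBL against PBP, where 21.5% of all genes were higher and 21.5% lower, 10 of 17 other neuron genes tested were higher and 1 lower. Of 12 other astrocyte genes 5 were higher and 1 lower, and of 10 other oligodendrocyte genes 2 were higher, a share near that of all genes, and 1 lower. In LL against PL, where 0.752% of all genes were higher, edgeR called 0 other neuron genes, with 7 at an unadjusted p under 0.05, and 1 other astrocyte and 1 other oligodendrocyte gene higher. In the PBP sorter comparison, where 4.25% of all genes were higher and 1.87% lower, 5 neuron, 2 astrocyte and 2 oligodendrocyte genes of these lists were higher and 1 oligodendrocyte gene lower. Glul, glutamine synthetase, and Trf, transferrin, were among the lower calls in PBL against PBP, at -0.59 ± 0.10 and -0.30 ± 0.09 (log2, SE). In PP they stood at 636 ± 51 and 3543 ± 194.7 CPM (SD, n = 5).

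Genes of blood cells, macrophages and microglia also moved beside these counts. All 7 neutrophil genes, among them S100a8, were higher in PBL against PBP and in PBL against PL, and all 7 lower in LBL against PBL; their sum was 125.4 to 476.3 CPM in PBL, 0.68 to 4.73 in LBL and 6.52 in PBP 5. In PBP 1 to 4 this sum was 0 to 0.27 CPM. The median log2 difference of the 7 genes in the PBP sorter comparison was 5.30, with a range of -2.20 to 6.74. With 1 library in that arm and levels near 0, it cannot be said whether these genes differ by sorter. Of 5 red blood cell genes, whose near-identical globin copies can share reads, 4 were higher in PBL against PBP. In the PBP sorter comparison their median log2 difference was 4.25, and PBP 5 held 75.5 CPM against 0.13 to 7.201 in PBP 1 to 4. Of 6 genes of border-associated macrophages, 5 were lower in PBL against PL and 5 in LBL against LL. In PBL against PBP 2 were lower, where 21.5% of all genes were. In PBP against PP 1 was lower, where 0.241% of all genes were, and all 6 had an unadjusted edgeR p under 0.05. Of the 12 microglial genes, 7 were lower and 1 higher in PBL against PBP, 5 lower in PBL against PL, and 5 lower and 2 higher in PL against PP. Of all genes, 21.5% were higher and 21.5% lower in PBL against PBP. These shares were 11% and 11.1% in PBL against PL, and 14.2% and 11.9% in PL against PP. They were 2.74% and 4% in LBL against PBL, and 0.487% and 0.722% in LBL against LL. The part of these cells in the members' levels was not tested.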

How the data were processed

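Bulk RNA-seq libraries of polyadenylated RNA were deposited as raw read counts per gene, which the authors did not normalize. Per the submitters' processing notes, FastQC 0.11.9, cutadapt 2.10, TopHat, SAMtools 1.10, Picard 2.13.2, HTSeq 0.11.0 and build GRCm39 were used; the roles of these, the annotation release and the strand setting: not given in the sources used here, so antisense overlaps cannot be told apart. RQN, an RNA integrity score, RNA concentration and sorting day were deposited by the authors for each library.

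Counts were tested in R 4.3.3 with edgeR 4.0.16 (filterByExpr, TMM, robust quasi-likelihood fit of 29 libraries with 6 group coefficients, 23 residual degrees of freedom, Benjamini-Hochberg over 16632 genes, threshold 0.05). Levels are CPM with TMM; log2 CPM used a prior count of 2. With 3 counts over a group as the limit for 0 counts, this was 0.0713 CPM in LL to 0.0958 in PBL, covering counting error only. Alternatives were other scalings, no filter, DESeq2 1.42.0, limma 3.58.1 voom, a replicate block, sorter, sorting day or RQN in the fit, 1 sorter only, and each library left out. The test was tried on simulated data. All 56 pairs of libraries of a group differed beyond sampling noise (chi-square per degree of freedom at least 5.47).

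The members and lists were chosen with earlier results of these data known. Values in every library are given for the 4 members of each class with the highest mean CPM, for Snap25, Slc1a2 and Mbp, and for members called in LBL against PBL or LL, or in PBP against PP without PBP 5; any other member could be named, and up to 3 genes of each other list, those of highest mean CPM. Slc1a3, Cnp and Mag were set apart, and the contrasts of sorting day and of RNA concentration, the count of genes separated by sorter and the promoter motif were added, after seeing the data. 1 microglial gene is not reported here by name.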

Additional observations from a re-analysis of the deposited data

Results flagged for a closer look

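Of 96 sets of libraries checked (the class means and 13 genes in each of 6 groups), 7 held 1 library far from the others of its group; chance gives about 1 in 20. In 5 of the 7 it was PBP 5, the PBP library sorted on the XDP. Its astrocyte mean was 4.37 log2 CPM against 2.11 to 2.44 in PBP 1 to 4. Its Myt1l level was 20.4 CPM against 1.88 to 3.34, Aldoc 49.1 against 7.52 to 10.2, Sparcl1 28.3 against 6.56 to 7.87, and Atp1b2 31.8 against 4.83 to 6.56. The other two were low: Snap25 in PL 2 at 7.13 CPM, with 10.7 to 11.1 in the rest of PL, and Mag in LL 5 at 28.1 CPM, with 34.8 to 36.5 in LL 1 to 4.

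For Atp1b2, LBL against PBL differed from LL against PL by -4.25 (log2, edgeR adjusted p = 0.04947). LL and PL share neither an instrument nor a day, so treatment, sorter and day cannot be told apart in this difference. In PL the gene read only 0.498 to 2.12 CPM. The adjusted p ran from 0.000162 with DESeq2 to 0.954 with the sorter in the fit.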

How the results depend on the processing

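Called members under each alternative were as follows where the count moved by over 1.5 times. PBL against PBP had 1 called member with the sorter in the fit, 1 with sorting day in the fit and 1 on one sorter only. LL against PL had 4 without the low-count filter, 16 with DESeq2 and 5 with the replicate block. It had 0 with the sorter in the fit, where 0.0661% of all genes were called. LBL against PBL had 0 with RLE scaling, no filter, voom, the replicate block, RQN in the fit or one sorter only. PBP against PP had 3 with DESeq2, 2 with the replicate block and 0 with no filter, voom, sorter, sorting day or RQN in the fit, or one sorter only. PBL against PL had 0 with the sorter or sorting day in the fit, where 0.018% and 0.0301% of all genes were called. The difference of first LPS responses had 1 with DESeq2 and 1 with the replicate block. The difference of effects of earlier LPS had 0 with RLE scaling, library totals, no filter, voom, and sorter, day or RQN in the fit. The PBP sorter comparison had 0 with the replicate block, and day 2 against day 1 had 7 without the filter, 5 with voom and 6 from the LL and LBL libraries alone. The other counts here, and those with 1 library left out, stand without the share of all genes and cannot be read as particular to the members. Causes were not tested.

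Leaving out 1 library gave 3 to 4 called members for PL against PP, 17 to 27 for PBL against PBP, 1 to 11 for LL against PL, 0 to 1 for LBL against PBL, 0 to 2 for PBP against PP, 23 to 27 for PBL against PL, 0 to 0 for LBL against LL, 0 to 11 for the difference of first LPS responses, 0 to 1 for that of earlier LPS, 11 to 16 for the sorter, 0 to 2 for RQN and 0 to 3 for day.

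Replicate numbers did not pair the libraries: of 70 same-number pairs across groups, 8 had correlated deviations over 0.1, with a median of 0.013 (-0.311 to 0.369).

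Signs turned for these log2 differences. In PBL against PBP, Snap25 was -0.009, Syt1 -0.131, Atp1b2 -0.147 and Slc1a2 -0.122 with the sorter in the fit; with sorting day they were -0.009, -0.131, -0.146 and -0.121, and on one sorter only -0.031, -0.153, -0.165 and -0.142. In LL against PL with the sorter in the fit, Snap25 was -0.264, Kif1a -0.212, Myt1l -0.798, Aldoc -0.631 and Sparcl1 -0.262. In PBL against PL, Syt1 was -0.731 with the sorter and -0.403 with day in the fit, Myt1l -0.025 and -0.016, and Slc1a2 -0.401 with the sorter. Of the other values for single genes, 253 kept direction and side of the threshold and 89 kept direction alone.

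Mean log2 CPM moved when Slc1a3, Cnp and Mag were left out. For astrocyte genes the PP mean became 1.62, that of PBP 2.05 (a move within that group's SD), of PL 1.63, of PBL 3.98, of LL 3.16 and of LBL 3.52. For oligodendrocyte genes it became 0.75 (PP), 1.56 (PBP), 0.96 (PL), 3.04 (PBL), 2.69 (LL) and 3.03 (LBL). The relation of Snap25 and Mbp was r = 0.372 without the 2 farthest libraries.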

Other observations

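The ratio of the neuron sum to the oligodendrocyte sum without Cnp and Mag, computed after the levels were seen, was 0.56 to 1.33 in PP and 1.63 to 2.04 in LBL. In LL it was 1.17 to 1.71 in replicates 1 to 4 and 3.73 in LL 5, the LL library sorted on day 1. PBL held 1.42 to 2.98, and PL 1.03 to 3.00.

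1 motif was searched in the promoters of the members, the core letters GAGGAAGT of PU.1 sites, a transcription factor of myeloid cells, on either strand. In RefSeq windows from GRCm38.p6 it was in 0 of 31 windows of the 22 members matched and in 3.2% of all 32851 windows. No match says only that these letters are not in these windows.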
